A study of Mus musculus with 4 samples.

Results

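Car4-positive endothelial cells were selected from single-cell RNA sequencing of 3 embryonic mouse lungs at E17.5. A cell was taken as endothelial when it held a UMI (a unique molecular identifier, counted as 1 captured RNA molecule) of at least 3 of the 6 genes Pecam1, Cdh5, Cldn5, Tie1, Rasip1 and Plvap and none of Ptprc or Epcam, which mark immune and epithelial cells. Cells with UMIs of 2 or more of the 4 arterial genes Gja4, Gja5, Dkk2 and Stmn2 were left out. The measured Car4 counts then chose the members, so that their Car4 and gate gene levels are a description. Of 1111 gated endothelial cells, 76 held a Car4 UMI (24, 24 and 28 in lungs 1, 2 and 3), which was 6.91 ± 1.21% of the gate (SD, n = 3 lungs). They were 76 of the 7479 cells of the 3 lungs and of the 10564 cells of the whole series. The 1035 Car4-zero cells of the same gate served for comparison.

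The E17.5 lungs were labelled WT, from C57BL/6 mice, and their digested cells were depleted of red cells by lysis and sorted as live cells. The series also holds cells of 1 E16.5 lung carrying αSMA-GFP, Tbx4-Cre and Rosa26-tdTomato, sorted as αSMA-positive fibroblasts of the Tbx4 lineage, with the same strain label. The sources used here do not say whether the E17.5 lungs came from separate litters. The lungs held between 2140 and 2682 cells each, with a median depth of 7201 to 8493.5 UMIs per cell. Any pair of the 4 libraries shared between 7 and 13 cell barcodes.

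Car4 encodes a carbonic anhydrase anchored to the cell surface, which speeds the exchange between carbon dioxide and bicarbonate at the capillary wall. In the mature lung it marks aerocytes, large and thin capillary cells that cover the alveolus and serve gas exchange. Aerocytes are also known for Ednrb, a receptor for endothelins, for Apln, a secreted peptide ligand, and for the transcription factor Tbx2. General capillary cells, which carry the apelin receptor Aplnr and the lipase-anchoring protein Gpihbp1, serve as progenitors and regulate vascular tone. The question put to these cells was whether Ednrb and Apln go with Car4 at E17.5.

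Most members carried few Car4 molecules. A single Car4 UMI was counted in 33 members, 2 UMIs in 17 and 3 or more in 26, up to 14 in 1 cell. The mean Car4 level of the members was 274, 340 and 598 CPM (a gene's UMIs as a share of the cell's total, on a common scale) in lungs 1 to 3. When each cell was thinned to 3000 UMIs, 63.5 ± 8.77% of the members would still hold a Car4 UMI, so a cell with 0 Car4 UMIs is not shown to lack the transcript. The other gate genes described the members as endothelial: 51 of the 76 cells held all 6 endothelial genes, as did 57 of 76 depth-matched Car4-zero cells. The arterial gate left 26 members with a UMI of exactly 1 arterial gene, against 25 matched cells. Cldn5, a tight junction claudin and itself a gate gene, stood at 2805, 2656 and 3524 CPM in the members and at 1426, 1679 and 2406 CPM in the matched cells.

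Car4 was not confined to these members. The 3 lungs held 239 cells with a Car4 UMI, and the members carried 216 of the 541 Car4 UMIs. Immune cells (Ptprc-positive cells without Epcam and with fewer than 2 endothelial genes) accounted for 56 Car4-positive cells and 123 UMIs, and 61 cells with 115 UMIs met no population rule. The 178 arterial cells left out by the gate included 9 with Car4. At 3000 UMIs, 4.52 ± 1.39% of gated endothelial cells held a Car4 UMI, against 3.08 ± 1.51% of arterial, 3.08 ± 0.463% of immune, 0.337 ± 0.126% of epithelial and 0.171 ± 0.164% of mesenchymal cells (SD, n = 3 lungs). Without thinning, the share of Car4-positive cells was 0.437 ± 0.290% in mesenchymal and 1.11 ± 0.0217% in epithelial cells. How much free RNA contributed to the share of any population was not tested. Median depths in these populations after the depth minimum lay between 6123 and 10517.5 UMIs.

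**Figure D1:**
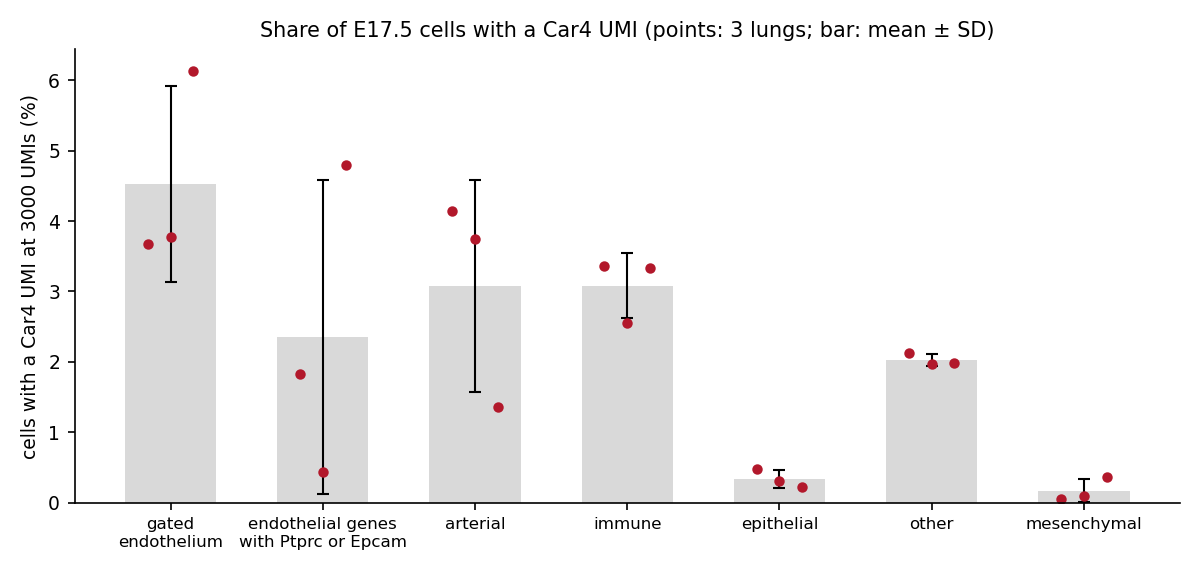
Share of E17.5 cells with a Car4 UMI after thinning to 3000 UMIs (%), by population; points are the 3 lungs, bars the mean and whiskers the SD. Gated endothelium averaged 4.52% and mesenchymal cells 0.171%, with immune and arterial cells both near 3.08%.

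Each member was paired with 1 Car4-zero cell of the same lung and nearest depth. The median depths of members and matched cells were 7730.5 and 7714.5 UMIs in lung 1, 8212.5 and 8219 in lung 2, and 6022 and 6027 in lung 3. Levels are the mean of the per-cell CPM in each lung, and differences are Car4-positive minus Car4-zero on the log2(CPM + 10) scale, tested over the 3 lungs with limma, with the lung as a block and Benjamini-Hochberg adjustment over all 7793 genes whose mean reached 10 CPM. In this comparison 8 genes were higher in the members (0.103% of those tested) and 3 were lower (0.0385%), at an adjusted p under 0.05. Unadjusted p was under 0.05 for 659 genes. The 8 include Car4 and Cldn5, which the selection used. The same members were also compared with all 1035 Car4-zero cells weighted to the members' depth distribution, which lowers the counting noise of the comparison group. That depth-weighted comparison called 133 of 7861 genes higher (1.69%) and 117 lower (1.49%), among them all 8 and all 3 genes of the matched one. Each gene has 2 residual degrees of freedom, and limma put the prior for its spread at 16.8 degrees of freedom in the matched fit and at infinity in the depth-weighted one. The depth-weighted p-values therefore rest on the trend of the spread over all genes and not on a gene's own spread between the 3 lungs.

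Outside the gate genes, those called higher in the matched comparison were Pmp22, Hpgd, Itgb5, Tbx2, Ly6a and Clec1a. Pmp22, a tetraspan membrane protein best known from peripheral myelin, stood at 394, 381 and 621 CPM in the members of lungs 1 to 3. Its matched levels were 129, 46.9 and 164 CPM, so the groups did not overlap. The difference was 2.06 ± 0.23 (SE) with a limma adjusted p of 0.000117. It kept its direction and its call under all 21 alternative settings run on the matched comparison. The other called genes kept their direction but were less stable in their call, which Hpgd lost under 2 of 21 settings, Tbx2, Ly6a, Clec1a, Atf3 and Actb under 6 each, Jund under 7 and Itgb5 under 8 of the 20 that tested it. DESeq2 called none of these 8 genes.

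Hpgd, the enzyme that inactivates prostaglandins, measured 124, 132 and 168 CPM against 11.9, 22.9 and 39.9 CPM in matched cells. Its difference was 2.18 ± 0.31 (adjusted p = 0.00229), and every lung's members were above every lung's matched cells. The arterial cells left out of the gate held 101 ± 8.56 CPM of Hpgd, a level set beside it without a test. Itgb5, an integrin beta chain, had 28 UMIs in the members and 2 in the matched cells, a ratio of 13.99 with a 95% counting interval of 3.53 to 121 (adjusted p = 0.0353 for a difference of 2.24 ± 0.43).

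Ly6a, the surface antigen Sca-1, reached 112, 233 and 212 CPM in the members and 13.1, 45.5 and 122 CPM in matched cells, with the ranges overlapping between lungs (difference 1.76 ± 0.31, adjusted p = 0.0302). The arterial cells held 201 ± 15.5 CPM of it. Clec1a, a C-type lectin of endothelium, was one of the more abundant of these genes at 845, 694 and 847 CPM against 389, 533 and 412 CPM (difference 0.83 ± 0.16, adjusted p = 0.0353). The members of each lung exceeded all 3 matched values.

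Lower in the members were the transcription factors Atf3 and Jund, both on the list of immediate early and stress genes, and the cytoskeletal actin Actb. Atf3 stood at 276, 169 and 130 CPM in the members and 510, 278 and 712 CPM in the matched cells (difference -1.31 ± 0.25, adjusted p = 0.0353). Jund was at 589, 559 and 641 CPM against 1430, 765 and 1025 CPM (difference -0.79 ± 0.15, adjusted p = 0.0353). Actb was at 4416, 5390 and 5068 CPM against 7346, 6081 and 6611 CPM (difference -0.43 ± 0.08, adjusted p = 0.0353). The highest member value lay just below the lowest matched value for Atf3, and further below it for Jund and Actb.

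**Figure D2:**
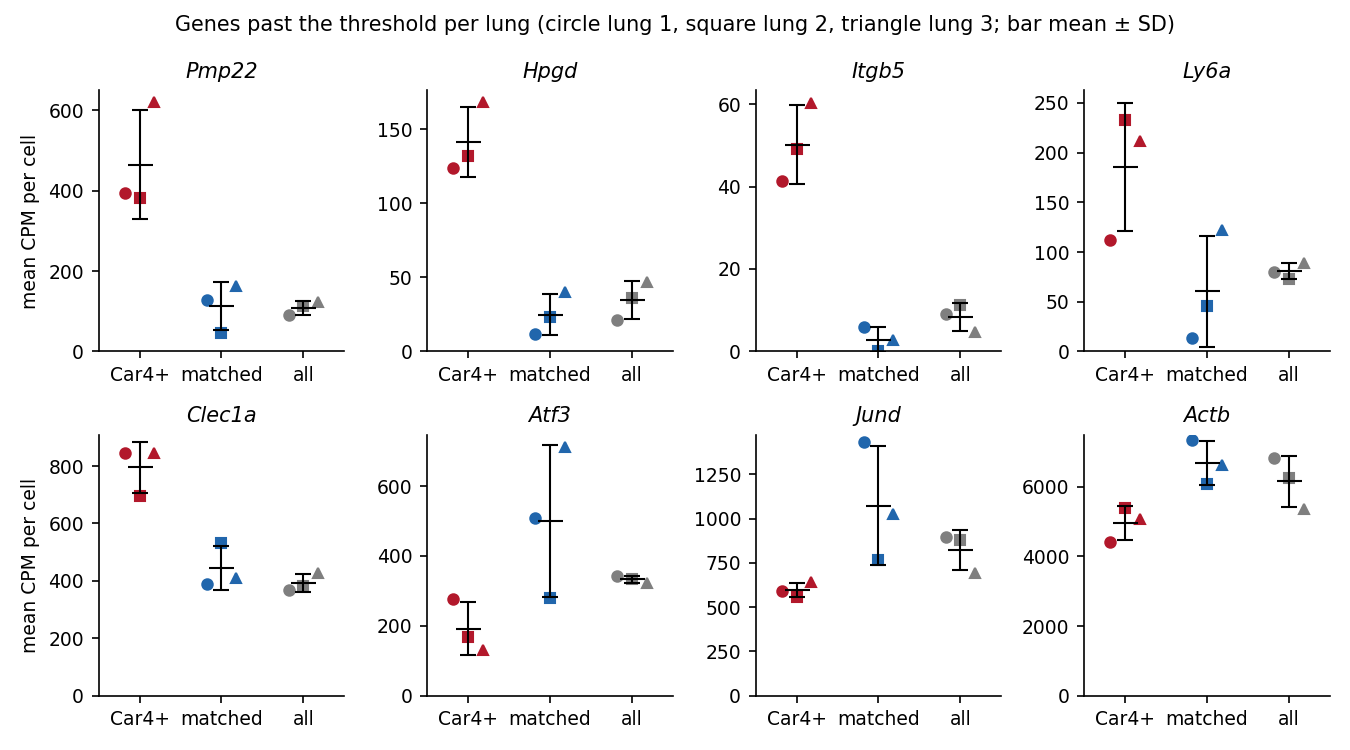
Mean CPM per cell of 8 genes past the adjusted threshold in the matched comparison, in Car4-positive cells (red), matched Car4-zero cells (blue) and all Car4-zero cells weighted by depth (grey); symbols mark lungs 1 to 3, bars the mean ± SD. Pmp22, Hpgd, Itgb5 and Clec1a of the members lie above both Car4-zero groups in every lung, and Jund and Actb of the members lie below the matched cells.

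Ednrb did not follow Car4 detectably. Its level in the members was 83.6, 111 and 166 CPM in lungs 1 to 3 (18, 20 and 33 UMIs), against 178, 79.7 and 69.4 CPM in the matched cells (31, 20 and 13 UMIs). Lung 1 went the other way from lungs 2 and 3, and the groups overlapped. The difference was 0.19 ± 0.32, with a 95% interval from -0.49 to 0.87 and an adjusted p of 0.921, so neither a fall of that size nor a rise of nearly 1 log2 unit is outside these data. Against all Car4-zero cells at weighted depth, which held 84.7, 81.3 and 97.3 CPM, the difference was 0.37 ± 0.20 (interval -0.02 to 0.76, adjusted p = 0.478). Without lung 3 the matched difference was -0.29. Ednrb was called in none of the 21 alternatives of the matched comparison and none of the 14 of the depth-weighted one. At 3000 UMIs, 26.8 ± 7.52% of the members and 25.1 ± 7.15% of the matched cells held an Ednrb UMI. Mesenchymal cells of the same lungs held 308 ± 5.90 CPM of Ednrb and immune cells 15.3 ± 3.01 CPM.

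Apln was higher in the members of every lung. It measured 103, 141 and 104 CPM (19, 28 and 17 UMIs), against 37.6, 76.6 and 43.7 CPM in the matched cells (7, 19 and 10 UMIs), and the groups did not overlap. The difference of 1.04 ± 0.28 (95% interval 0.45 to 1.63) had an unadjusted p of 0.00154 in limma and an adjusted p of 0.221, and therefore did not pass. With all Car4-zero cells at weighted depth (41.6, 48.8 and 55.0 CPM) it was 1.10 ± 0.22 with an adjusted p of 7.6e-05, and it passed in all 14 alternatives of that comparison, with an adjusted p of at most 0.0409. Thinned to 3000 UMIs, 24.0 ± 2.91% of the members held an Apln UMI, against 11.2 ± 6.36% of matched cells, 10.2 ± 0.758% of all Car4-zero cells and 0.204 ± 0.237% of immune cells. No test was made of these shares, since 3 pairs of lungs allow no exact two-sided p below 0.25. Arterial cells held 10.3 ± 5.04 CPM of Apln. The members were 6.91% of the gated cells and held 7.48 ± 1.10% of all their UMIs, and they carried 16.2, 15.3 and 13.6% of the gate's Apln UMIs in lungs 1 to 3, against 8.11, 7.09 and 13.6% of its Ednrb UMIs.

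Tbx2 was the aerocyte gene that passed in the matched comparison. Its levels were 131, 65.4 and 130 CPM in the members and 51.5, 0 and 30.5 CPM in the matched cells, without overlap. The UMIs behind them were 59 in the members and 15 in the matched cells. The difference was 1.97 ± 0.37 (adjusted p = 0.0353), and 1.82 ± 0.25 against all Car4-zero cells (adjusted p = 4.72e-10). Mesenchymal cells carried 235 ± 20.3 CPM of Tbx2, more than the members. None of the 76 members held UMIs of 2 or more of the mesenchymal genes Hhip, Wif1, Pdgfra, Tcf21, Pdgfrb and Cspg4, while 2 of the matched cells did. With such cells left out Tbx2 was called in both comparisons. That setting removed Car4-zero cells only and no member. Whether mesenchymal RNA contributed to the Tbx2 of the members was not tested.

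**Figure D3:**
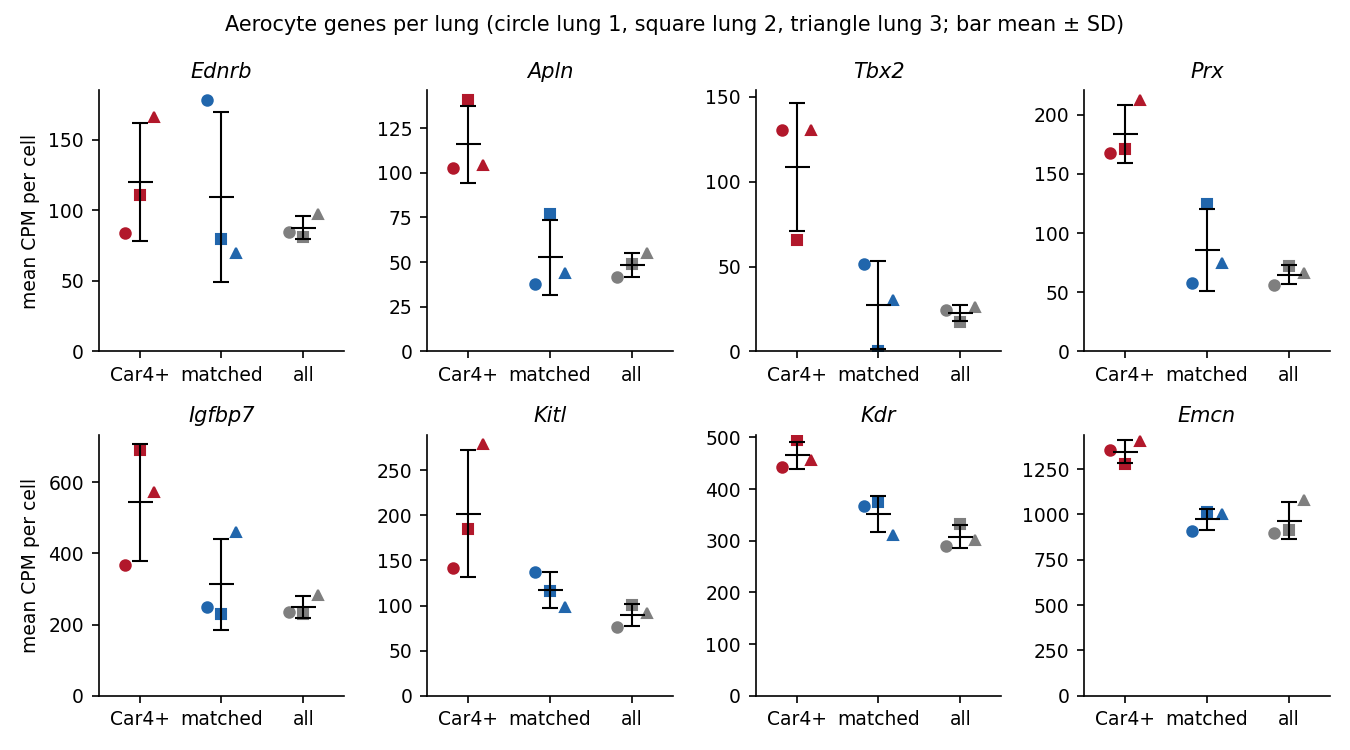
Mean CPM per cell of 8 aerocyte genes in Car4-positive (red), matched Car4-zero (blue) and all depth-weighted Car4-zero cells (grey); symbols mark lungs 1 to 3, bars the mean ± SD. Apln, Tbx2, Prx, Kdr and Emcn of the members lie above both other groups without overlap, and Ednrb overlaps.

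The wider aerocyte list leaned the same way. Of its 16 genes, 13 could be tested in both comparisons, and Fibin, Rprml and Cdkn2b stayed under the level filter. Of these, Fibin had 1 UMI in the members and 5 in the matched cells, and Cdkn2b had 2 and 3, so both went the other way on few counts. In the matched comparison all 13 differences were above 0 (against 52.5% of all genes tested), 12 were higher in 3 of 3 lungs (against 16.9% of all genes), and their median was 0.70 against 0.02 over all genes. Only Tbx2 passed there, while 11 had an unadjusted p under 0.05 and edgeR called none. In the depth-weighted comparison 9 of 13 passed, all higher, against 1.69% of all genes called higher. Their median there was 0.59 against -0.02 over all genes. The list was drawn up with earlier results of these data known, so these counts describe it and do not test it.

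The 9 were Igfbp7, Tbx2, Prx, Cd34, Kitl, Emcn, Nrp1, Apln and Kdr. Prx, a scaffold protein of the cell cortex, measured 168, 171 and 212 CPM in the members against 56.0, 72.6 and 66.1 CPM in the weighted Car4-zero cells (difference 1.37 ± 0.19, adjusted p = 5.67e-10). Igfbp7, a secreted binding protein of the vessel wall, measured 367, 691 and 573 against 235, 229 and 284 CPM (1.05 ± 0.12, adjusted p = 5.09e-14). In both genes the members lay above the Car4-zero cells in every lung.

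Kitl, the ligand of the Kit receptor, was at 142, 185 and 279 CPM in the members and 76.5, 100 and 91.5 CPM in the weighted cells (1.05 ± 0.18, adjusted p = 1.31e-06). Kdr, the main VEGF receptor, which aerocytes keep at high levels, was at 444, 495 and 457 against 289, 333 and 302 CPM (0.58 ± 0.12, adjusted p = 0.000243). Nrp1, its co-receptor, was at 494, 588 and 654 against 392, 346 and 399 CPM (0.59 ± 0.11, adjusted p = 3.04e-05). The sialomucins Emcn and Cd34, already abundant in Car4-zero cells at 965 ± 101 and 912 ± 36.4 CPM, rose by smaller steps of 0.48 ± 0.08 and 0.56 ± 0.08 (adjusted p = 1.9e-06 and 1.34e-08). Kdr no longer passed in 2 of the 14 alternatives of this comparison, Nrp1 in 2, and Igfbp7, Cd34, Emcn and Kitl in 1 each.

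Chst1, Cyp4b1, Sirpa and Ednrb were the 4 that did not pass. Chst1, a sulfotransferase, had 11 UMIs in the members and 2 in the matched cells, a ratio of 5.49 (95% counting interval 1.20 to 51.0), with a weighted difference of 1.19 ± 0.38 (adjusted p = 0.0559). Cyp4b1, a cytochrome P450, showed 0.53 ± 0.20 (adjusted p = 0.175). Sirpa, a receptor of CD47 that immune cells carried at 232 CPM on average, showed 0.56 ± 0.36 (adjusted p = 0.596).

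General capillary genes went mostly the other way. In the matched comparison 8 of the 9 tested had a difference below 0 with a median of -0.36, but none passed in limma or in edgeR, and 1 had an unadjusted p under 0.05. In the depth-weighted comparison 3 of 8 were lower and none higher, against 1.49% and 1.69% of all genes. Aplnr, the apelin receptor, was at 178, 277 and 173 CPM in the members, 249, 249 and 304 CPM in the matched cells and 390, 308 and 367 CPM in the weighted cells (weighted difference -0.76 ± 0.14, adjusted p = 7.49e-06). Ptprb, a phosphatase that restrains the angiopoietin receptor, differed by -0.90 ± 0.21 and Tek, that receptor, by -0.90 ± 0.22 (adjusted p = 0.00178 and 0.00256). All 3 were lower in 3 of 3 lungs, and none of them was called once cells with 2 or more lymphatic genes were left out or the lung block was dropped. Over all 14 alternatives the difference stayed between -1.07 and -0.59 for Aplnr, -1.11 and -0.57 for Ptprb and -1.47 and -0.62 for Tek.

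No other general capillary gene was called in either comparison. Gpihbp1 was at 561, 520 and 429 CPM in the members and 531, 565 and 623 CPM in the weighted cells (-0.19 ± 0.11, adjusted p = 0.514). Cd93, Kit, Tspan7 and Cxcl12 had weighted differences between -0.19 and -0.07, each changing sign under at least 1 alternative. Cxcl12 showed 1.06 ± 0.54 in the matched comparison, where 12 of its 16 member UMIs came from lung 2. Sema3c was tested only against matched cells (-0.48 ± 0.45), and Glp1r in neither.

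**Figure D4:**
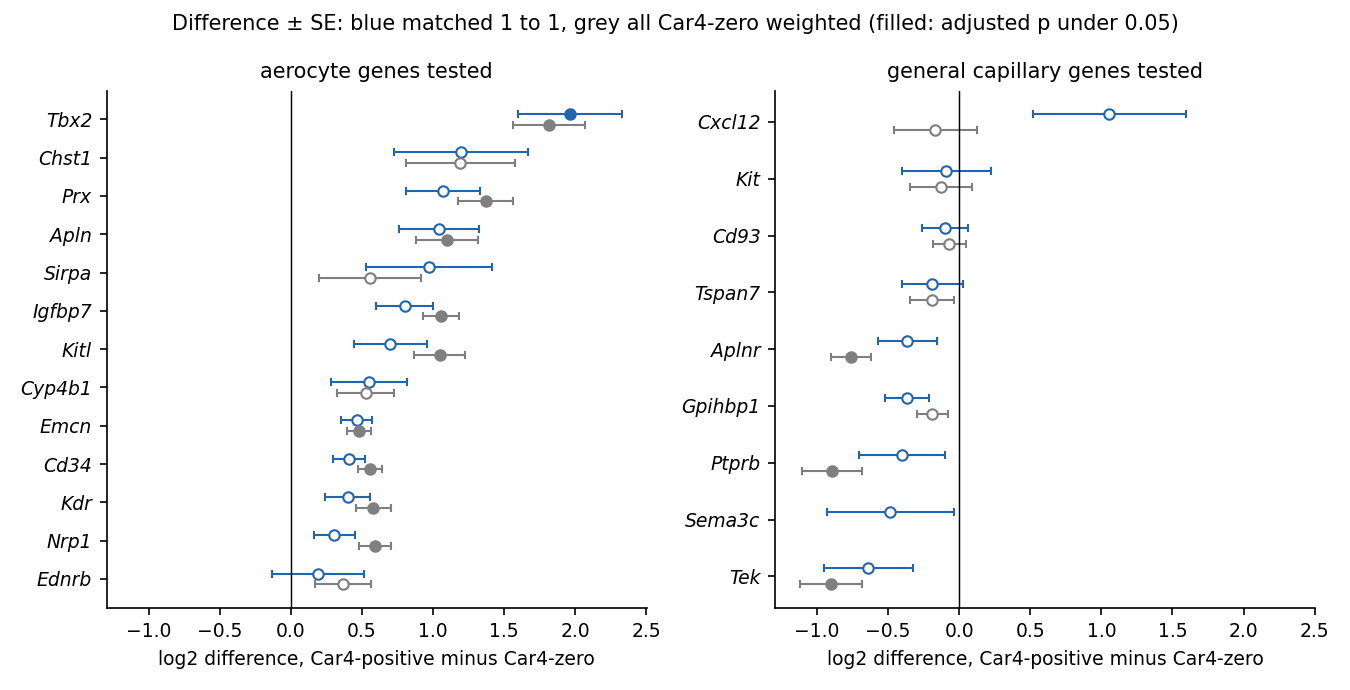
Log2 difference, Car4-positive minus Car4-zero, ± SE for the aerocyte and general capillary genes tested, with matched (blue) and depth-weighted (grey) Car4-zero cells; filled points have an adjusted p under 0.05. All 13 aerocyte differences lie right of 0, with Tbx2 alone filled in blue, and Ednrb is the smallest; Aplnr, Ptprb and Tek are filled on the left in grey.

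The members with more Car4 molecules were set apart from those with 1. Just inside the threshold, the 33 cells with exactly 1 Car4 UMI held 102 ± 38.5 CPM of Apln, 65.8 ± 37.5 of Tbx2, 320 ± 144 of Pmp22 and 128 ± 63.8 of Ednrb (SD, n = 3 lungs). Just outside it, the Car4-zero cells held 45.7 ± 7.18, 21.3 ± 4.33, 102 ± 13.7 and 85.6 ± 12.2 CPM of these genes. The 26 cells with 3 or more Car4 UMIs held 167 ± 23.2 CPM of Apln, 201 ± 74.5 of Tbx2, 768 ± 136 of Pmp22 and 875 ± 69.7 of Igfbp7, while Aplnr was at 67.7 ± 58.8 CPM and Ednrb at 102 ± 95.6 CPM. In lung 1 this highest class was 3 cells without an Ednrb or Aplnr UMI. These cells were somewhat deeper, with medians of 8327, 10244.5 and 6492 UMIs against 6466, 7504 and 5998 in Car4-zero cells, and CPM takes account of depth. The 17 cells with 2 Car4 UMIs did not fall between these classes in every gene. They held 56.7 ± 49.6 CPM of Apln, 65.9 ± 70.8 of Tbx2, 278 ± 163 of Pmp22, 267 ± 62.9 of Igfbp7 and 390 ± 184 of Aplnr, where the Car4-zero cells had 254 ± 22.8 of Igfbp7 and 355 ± 36.7 of Aplnr. Only 3 of the 17 came from lung 2, and the levels did not follow a steady order with the Car4 count. These levels are a description, since Car4 defined the classes.

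When only cells with 2 or more Car4 UMIs were taken as positive and matched anew, 47 genes were higher and 21 lower in limma. Apln then passed with a difference of 1.76 (adjusted p = 0.0144), as did 3 other aerocyte genes, while Ednrb was at -0.11 (adjusted p = 0.972).

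**Figure D5:**
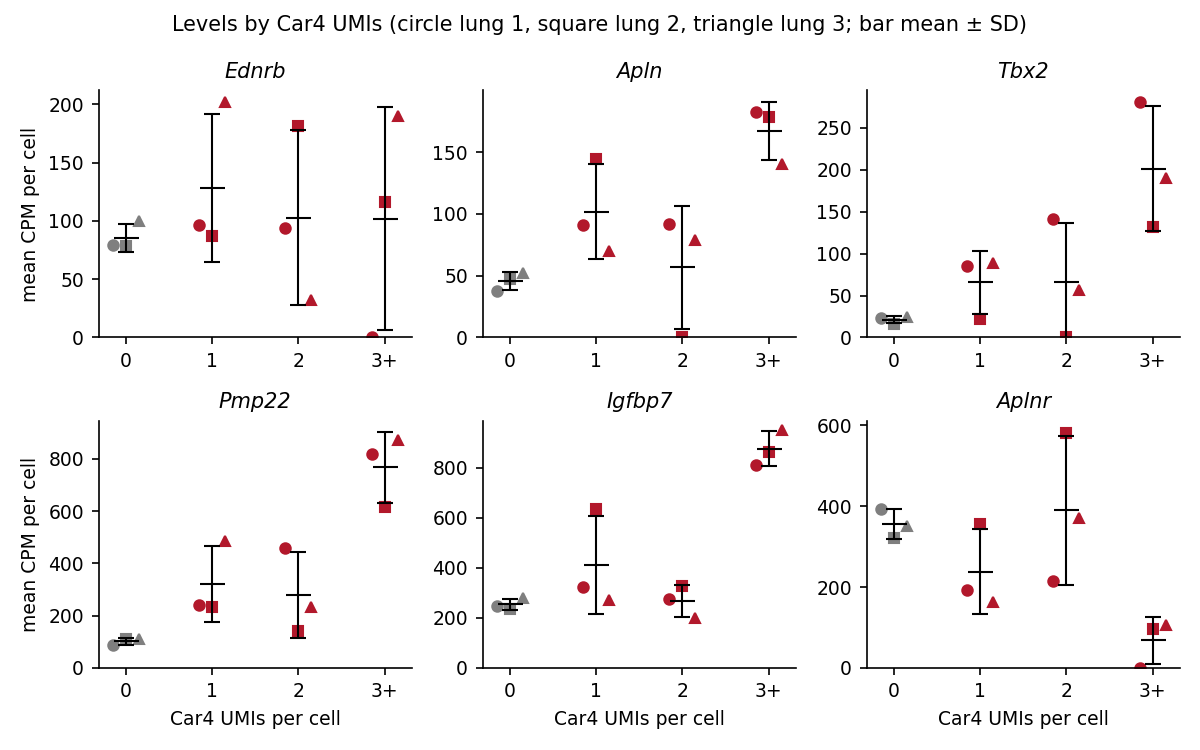
Mean CPM per cell of Ednrb, Apln, Tbx2, Pmp22, Igfbp7 and Aplnr in gated endothelial cells with 0 (grey), 1, 2 and 3 or more Car4 UMIs (red); symbols mark lungs 1 to 3, bars the mean ± SD. Apln, Tbx2, Pmp22 and Igfbp7 are highest and Aplnr lowest at 3 or more Car4 UMIs, while Ednrb shows no order.

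Single members rarely held all of these transcripts. An Ednrb UMI was found in 41 of the 76 members and an Apln UMI in 31, and 17 held both, against 36, 15 and 8 of the 76 matched cells. Apln and Tbx2 were counted together in 16 members and in 3 matched cells. All 3 genes were found in 10 members and 3 matched cells, and none of the 3 in 16 members and 31 matched cells. Cells of a lung are not replicates, and no test was made on these counts. The joint counts were not set against those that the single-gene shares alone would give.

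Among endothelial transcription factors, 3 of 16 were higher and 2 lower in the depth-weighted comparison, against 1.69% and 1.49% of all genes. Besides Tbx2, the related Tbx3 rose to 230, 175 and 165 CPM against 72.5, 87.1 and 72.9 CPM (1.18 ± 0.19, adjusted p = 5.17e-08). Foxf1, a forkhead factor needed for lung vessels, stood at 754, 606 and 768 against 462, 353 and 394 CPM (0.80 ± 0.11, adjusted p = 1.28e-10). Both were higher without overlap and narrowly missed or missed the matched threshold (adjusted p = 0.0554 for Foxf1 and 0.111 for Tbx3). Nr2f2, which specifies veins, and Sox7 were lower (-1.81 ± 0.33 and -0.81 ± 0.21, adjusted p = 9.8e-06 and 0.0087).

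Of 11 genes of caveolae and membrane organisation, 5 were higher and 1 lower in the depth-weighted comparison, against 1.69% and 1.49% of all genes. There Pmp22 and Prx stood beside the tetraspan protein Emp2, the caveolin Cav2 and the water channel Aqp1. Emp2 was at 47.8, 88.5 and 135 CPM against 22.8 ± 7.73 CPM over the 3 lungs (1.54 ± 0.26, adjusted p = 1.31e-06). Cav2 and Aqp1 differed by 0.62 ± 0.12 and 0.45 ± 0.14 (adjusted p = 2.64e-05 and 0.0423), and Aqp1 lost its call under 11 of 14 alternatives. Sdpr, another caveolar protein, differed by -0.37 ± 0.11 (adjusted p = 0.0438), a call lost under 12 of 14 alternatives. Aqp1 stood higher still in arterial cells, at 690 ± 63.5 CPM.

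Among the largest depth-weighted differences were further genes of low level. Ackr2, a scavenging receptor of inflammatory chemokines, was at 43.7, 49.8 and 44.5 CPM in the members against 10.9, 10.8 and 13.2 CPM (1.37 ± 0.32, adjusted p = 0.0013). Tex14, known from germ cell bridges, had 11 UMIs in the members and 0 in the matched cells (1.39 ± 0.39, adjusted p = 0.0166), and Ryr2, a calcium release channel, had 19 and 9 (1.37 ± 0.36, adjusted p = 0.0076). Tex14 lost its call under 6 of 13 alternatives and Ryr2 under 8 of 14. Lower were G0s2, an inhibitor of lipolysis, and Ppp1r14a, an inhibitor of myosin phosphatase, by -1.70 ± 0.36 and -1.52 ± 0.32 (adjusted p = 0.00022 and 0.000255), with 5 and 8 UMIs in the members. Of 14 endothelial genes outside the gate, the adhesion molecule Icam2 and the surface protein Ecscr were higher (0.56 ± 0.10 and 0.47 ± 0.11, adjusted p = 2.3e-06 and 0.00198) and Sox7 lower. Of 7 tip cell genes, Apln and Nid2 were higher. Over all genes, 1.69% were called higher and 1.49% lower in the depth-weighted comparison.

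The signalling lists were counted in the depth-weighted comparison, which called 1.69% of all genes higher and 1.49% lower. In the apelin system the ligand Apln was higher and its receptor Aplnr lower, the only 2 members tested. In the endothelin system 1 of 4 was called, the ligand Edn1, at 32.3, 17.4 and 30.9 CPM in the members against 71.3, 68.6 and 103 CPM (-1.31 ± 0.26, adjusted p = 6.63e-05). Edn1 missed the threshold in edgeR with 5 matched cells per member (adjusted p = 0.0594). Of 8 VEGF system genes, Kdr and Nrp1 were higher, and Nrp2 and the lymphatic growth factor Vegfc lower (-1.07 ± 0.31 and -1.36 ± 0.33, adjusted p = 0.0211 and 0.00251). Among 14 genes of BMP and TGF-beta signalling, Tmem100, a target of endothelial BMP signalling, rose to 94.2, 148 and 232 CPM against 34.8, 37.2 and 37.9 CPM (1.77 ± 0.22, adjusted p = 1.03e-12). Arterial cells had 315 ± 49.7 CPM of Tmem100. Tgfbr2 was higher and Id2 lower on the same list, each losing its call under 12 of 14 alternatives. None of 8 Notch genes and none of 11 junction genes passed in limma or in edgeR, with 1 and 0 of them at an unadjusted p under 0.05. Counts of 0 in lists this short cannot be told from the shares over all genes.

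Of 8 other carbonic anhydrases listed, only 2 reached the level filter against matched cells and 3 against depth-weighted cells, and none was called higher. Car2, a cytosolic one, was at 200, 142 and 171 CPM in the members, 113, 115 and 79.8 CPM in the matched and 139, 118 and 138 CPM in the weighted cells, above both in every lung. Its difference was 0.69 ± 0.24 in the matched comparison (unadjusted p = 0.0104, adjusted p = 0.447) and 0.34 ± 0.17 in the depth-weighted one (adjusted p = 0.409). Car8 was lower (-1.42 ± 0.37, adjusted p = 0.00771), a call lost under 10 of 14 alternatives. Basement membrane genes were higher in 3 of 14 cases (1.69% over all genes), namely Col4a1, Col4a2 and Nid2. Col4a1 was at 1064, 1350 and 1303 CPM against 815, 869 and 853 CPM (0.54 ± 0.09, adjusted p = 1.45e-07). With 5 matched cells per member, only Col4a1 of these was called in edgeR, and Nid2 lost its call under 13 of 14 alternatives. The lipid-binding Fabp4 was at 6.26, 2.09 and 0 CPM in the members against 73.3, 37.2 and 61.9 CPM (-2.39 ± 0.34, adjusted p = 1.1e-09). The matched cells had 30, 0 and 13 UMIs of Fabp4, with lung 2 going the other way and an adjusted p of 0.216. Fabp5 was lower by -1.25 ± 0.22 (adjusted p = 3.51e-06), while the fatty acid receptor Cd36 was higher by 0.44 ± 0.13 (adjusted p = 0.0276), a call lost under 11 of 14 alternatives.

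Immediate early and stress genes were lower in 5 of 16 cases against depth-weighted cells (Atf3, Junb, Jund, Klf6 and Fos) and in 2 against matched cells. Over all genes these comparisons called 1.49% and 0.0385% lower. The matched Atf3 values ranged from 278 to 712 CPM between lungs. Cell cycle genes gave no call: 0 of 16 S phase and 0 of 18 G2 and M phase genes passed in limma and in edgeR in either comparison. Unadjusted p was under 0.05 for 5 S phase genes, all higher, and 2 G2 and M phase genes, both lower, against matched cells. Over all genes, in either direction, this held for 659 of 7793. The S phase list still leaned upward there, with 15 of 16 differences above 0 (52.5% of all genes) and a median of 0.53. In that comparison 10 of the 16 were higher in 3 of 3 lungs, against 16.9% of all genes. Against depth-weighted cells 14 of 16 were above 0 (48.1% of all genes), with a median of 0.30. Of the G2 and M phase genes, 7 of 18 were above 0 against matched cells, with a median of -0.11. Cells with 2 or more of Mki67, Top2a, Cenpf, Birc5 and Ube2c made up 36.5 ± 6.90% of the members and 34.7 ± 10.5% of the matched cells. Leaving them out of the matched comparison gave 29 genes higher and 12 lower, and Apln then passed at 1.80 (adjusted p = 0.0169).

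Markers of other vessels and cell types also differed, where the depth-weighted comparison called 1.69% of all genes higher and 1.49% lower. Venous and lymphatic markers were lower in the depth-weighted comparison, 3 of 4 (Nr2f2, Car8 and Vwf) and 2 of 4 tested (Ccl21a and Lyve1). With 5 matched cells per member, edgeR called 1 of each list lower, against 72 of all 7843 genes. Ccl21a, a chemokine of lymphatic endothelium, had 1 UMI in the members, and Prox1 and Reln were at 0 in all 3 lungs, whereas the lymphatic list as a whole summed to 299 to 468 CPM in the members, 435 to 699 in matched and 561 to 673 in all Car4-zero cells, mostly from Lyve1. With cells holding Prox1, Ccl21a, Mmrn1 or Reln left out, 86 genes were higher and 75 lower. The arterial list had 2 of 6 genes lower in the depth-weighted comparison, Mgp and Fbln5, and none higher. Against matched cells Fbln5 went the other way, at 0.38 ± 0.46, higher in 2 of 3 lungs, with 13 and 12 UMIs.

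Mesenchymal markers were lower in 4 of 5 cases in the depth-weighted comparison (Mfap4, Col1a1, Col1a2 and Tcf21), against 1.49% of all genes. Their summed levels were 168 to 279 CPM in the members, 210 to 467 in matched and 431 to 642 in all Car4-zero cells. Pdgfra, Pdgfrb and Dcn were at 0 in the members. Against matched cells Mfap4 was near level, at -0.09 ± 0.23 with 108 and 112 UMIs. The smooth muscle actin Acta2, the only myofibroblast marker tested in the depth-weighted comparison, was lower (-1.50 ± 0.32, adjusted p = 0.000345), with 6 UMIs in the members and 25 in the matched cells. Of 8 epithelial markers the surfactant protein gene Sftpc was lower, at 2008, 1466 and 1640 CPM against 3076, 2124 and 1778 CPM (-0.42 ± 0.07, adjusted p = 3.84e-07). With 5 matched cells per member, edgeR called 3 of the 8 lower, against 72 of all 7843 genes. The epithelial list summed to 1748 to 2248 CPM in the members, 1885 to 5660 in matched and 2138 to 2981 in all Car4-zero cells. Of 6 immune markers, Tyrobp was higher (0.67 ± 0.20, adjusted p = 0.0294). The immune list summed to 286 to 1009 CPM in the members against 267 to 310 CPM in the matched cells. Pf4, placed on the platelet list, had 57 UMIs in the members, 55 of them in lung 1, and 5 in the matched cells. Of the other genes on that list, Ppbp and Gp9 were at 0 in both groups and Itga2b had 1 UMI in each. The list sum of 0 to 196 CPM against 7.78 to 12.9 CPM was therefore mostly Pf4, whose cell source was not tested. Pf4 did not pass (adjusted p = 0.71 matched and 0.213 weighted). The haemoglobin genes Hba-a1, Hba-a2 and Hbb-bs were lower against all Car4-zero cells (3 of 4), whose erythroid sum ranged from 112 to 838 CPM between lungs, but had differences above 0 against matched cells, 17 to 337 against 0 to 52.2 CPM. The part of these markers in the results above was not tested, apart from the settings that left cells out.

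The count of calls rests on few cells. In the matched comparison it was 15, 25 and 5 genes higher and 3, 17 and 0 lower when lung 1, 2 or 3 was left out. In the depth-weighted one it was 70, 112 and 77 higher and 37, 67 and 56 lower. With no replicate block for the lung it was 25 higher and 7 lower, with 3 aerocyte genes higher and 0 general capillary genes lower. The 3 general capillary calls fell to 1 without lung 1 and to 1 without lung 3. Nothing in the labels gives a litter or a preparation day.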

How the data were processed

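The 3 E17.5 lungs were analysed, with the E16.5 sort set beside them. The authors deposited 1 table of normalized signal values per sample; Cell Ranger 1.3.1 and Seurat 3.0.0 are named in the submitters' processing notes without their roles, and no source used here gives the genome build. Each cell's deposited signal values were whole multiples of 1 step (100% of values, tolerance 0.01) and summed to the sample's median depth, so UMI counts were recovered. Total UMIs per E17.5 lung were 23996253, 20347458 and 21358915. The extract protocol speaks of lysis plates, whereas the barcodes are of the droplet type.

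Members and gene lists were chosen with earlier results of these data known. Each member was matched to 1 Car4-zero cell of its lung by UMI total, and in the depth-weighted comparison all Car4-zero cells were weighted over 5 depth bins; levels are mean per-cell CPM. limma 3.58.1 with trend tested log2(CPM + 10) with the lung as block, because both cell groups come from the same lung; same-lung deviations correlated at 0.0079, 0.0263 and 0.0600. Genes needed a mean of 10 CPM. The text names Ednrb, Apln, both capillary lists, up to 10 largest called rises and falls with 1 direction in 3 of 3 lungs, and up to 4 called genes per direction of other lists. This rule was applied to the matched comparison first and then, after seeing the data, to the depth-weighted one; Aqp1, Fos, Pf4, Car2 and the genes of the co-detection and Car4 class counts were named after their values were seen. On the recovered UMIs, edgeR 4.0.16 called 6 genes higher and 3 lower against matched cells and DESeq2 1.42.0 called 2 and 0. Shares are the expected share of cells with a UMI at a fixed depth, leaving out shallower cells (2 members, 2 matched and 46 of all Car4-zero cells at 3000 UMIs). Intervals on counts are exact (95%) and cover counting error only. Scrublet marked 36, 34 and 26 doublets, 1 of them a member; these cells stayed in and were removed in an alternative.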

Additional observations from a re-analysis of the deposited data

Results flagged for a closer look

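The E16.5 sort of αSMA-positive, Tbx4-lineage cells entered no comparison, and 16 of its cells met the endothelial gate. None held a Car4 UMI, and 3 counts of 16 set the limit for the share of cells with a Car4 UMI at 18.75%, which says nothing of cells expressing it. Ednrb was counted in 37.5% of the 16 cells (exact 95% interval 15.2 to 64.6%), Apln in 25% and Tbx2 in 25% (7.27 to 52.4% each). These shares exceed the limit that a count of 0 allows, but the intervals of all 3 reach below it, so none is shown to lie above. Over the 3085 cells of the whole sort, 1661 held an Ednrb UMI, 2610 a Tbx2 UMI and 32 an Apln UMI. Whether free RNA contributed to the values of the 16 cells was not tested.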

How the results depend on the processing

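Alternatives of the depth-weighted comparison, the edgeR fit on all Car4-zero cells and the stricter lymphatic rule were chosen after seeing the data; the others were planned. In the matched comparison, 8 genes were higher and 3 lower. All Car4-zero cells gave 130 and 95 without matching, 133 and 117 when weighted by depth and 133 and 103 in edgeR, where many more cells enter. Members with 2 or more Car4 UMIs gave 47 and 21, a pseudocount of 1 gave 4 and 0, CPM of summed UMIs 2 and 0, DESeq2 2 and 0, and leaving out cycling cells 29 and 12. Without cells holding mesenchymal genes 13 were higher. Leaving out 1 lung gave 5 to 25 higher and 0 to 17 lower. With no replicate block, 12 were higher and 3 lower.

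The 1 aerocyte gene called higher became 10 with all Car4-zero cells, 9 weighted, 10 in edgeR on all cells, 2 after thinning before the gate, 4 at 2 or more Car4 UMIs and 6 without cycling cells. It became 0 at a pseudocount of 1, with summed UMIs, in edgeR, in DESeq2 and without cells holding lymphatic genes, and 0 to 2 with 1 lung left out. The 0 general capillary genes called lower became 3 with all Car4-zero cells, 3 weighted and 3 in edgeR on all cells. Apln passed with all Car4-zero cells (1.17), weighted (1.10), in edgeR on all cells (1.14), at 2 or more Car4 UMIs (1.76) and without cycling cells (1.80); it did not pass with 1 lung left out (0.94 to 1.17) and was 0.55 without cells holding lymphatic genes (adjusted p = 0.825). Ednrb passed in none of these and turned to -0.11 at 2 or more Car4 UMIs, with a range of -0.29 to 0.79 when 1 lung was left out.

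In the depth-weighted comparison, 133 genes were higher and 117 lower. With 5 matched cells per member this was 85 and 45 (72 lower in edgeR), at 2 or more Car4 UMIs 80 and 56, and without cells holding 2 or more lymphatic genes 51 and 46. It was 86 and 75 without cells holding Prox1, Ccl21a, Mmrn1 or Reln, and 25 and 7 with no replicate block. At a pseudocount of 1, 74 were lower. Leaving out 1 lung gave 70 to 112 and 37 to 67. The 9 aerocyte genes became 3 with no replicate block. The 3 general capillary genes became 0 with no replicate block, 0 without cells holding 2 or more lymphatic genes and 1 to 3 with 1 lung left out.

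Of 55 listed genes called there (up to 5 per list and direction), 23 were not called by limma with 5 matched cells, 12 by edgeR with them and 3 by edgeR on all Car4-zero cells, and none changed sign under any of the 14 alternatives that tested it. The matched comparison was not among those 14, and in it Fbln5, Hba-a1, Hba-a2 and Hbb-bs had differences above 0. Calls were lost under 7 of 14 for Vegfc and Col1a2, 8 for Sox7, Nrp2, Vwf and Tyrobp, 9 for Fos, and 9 of 13 for Tcf21.

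Some single genes that were not called changed sign. Against matched cells, after thinning before the gate, Cyp4b1 was -0.13, Sema3c 1.43 and Cxcl12 -0.37. Cxcl12 was also -0.49 with all Car4-zero cells, -0.17 weighted and -0.48 in edgeR on all cells. Kit was 0.0498 at 2 or more Car4 UMIs, 0.0334 with summed UMIs, 0.0013 in edgeR, 0.0755 without cycling cells and 0.0026 without lymphatic cells, where Cd93 was 0.0148. Tspan7 was 0.0838 at 2 or more Car4 UMIs. With 1 lung left out, Kit spanned -0.45 to 0.31 and Cd93 -0.29 to 0.0337. In the depth-weighted comparison with 5 matched cells, Kit was 0.0496 (0.0233 in edgeR) and Cxcl12 0.35 (0.41 in edgeR), and Tspan7 was 0.0796 at 2 or more Car4 UMIs. With 1 lung left out, Kit spanned -0.34 to 0.0036, Cd93 -0.14 to 0.066, Cxcl12 -1.15 to 0.42 and Tspan7 -0.38 to 0.0419. Apart from the number of cells that enter, the cause was not tested. Depth limits all of these values, since the members of a lung held between 17 and 33 UMIs each of Ednrb and Apln, and fewer of genes such as Chst1 and Cxcl12.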
